A study of Mus musculus with 6 samples.

Results

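Cholesterol that enters a cell by endocytosis has to leave the late endosome before it can be used, and a small set of lipid transfer proteins carries it onward. The genes described here are 10 members of that route, chosen by name: Npc1, Npc2, Stard3, Stard4, Gramd1a, Gramd1b, Gramd1c, Osbp, Osbpl2 and Osbpl5. All 10 were found among the 55492 genes measured, and all 10 were among the 15245 genes abundant enough to be tested. RNA was measured in O4+ cells of whole mouse brains at postnatal day 16, from 3 WT and 3 Npc1-/- mice with 1 library per mouse. Npc1-/- mice carry 2 copies of the Npc1nih allele, an insertion mutation that arose in BALB/cJ mice. By the methods of the study they were F1 hybrids of BALB/cJ and C57BL6/J parents, each parent being Npc1+/-. The mutation is present in every cell of the animal and not in oligodendrocytes alone. O4 is a surface lipid antigen of late oligodendrocyte progenitors and immature oligodendrocytes, and cells that carried it were held on magnetic microbeads.

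In the lumen of the late endosome the soluble protein NPC2 takes up free cholesterol and hands it to NPC1, a membrane protein that passes it into the limiting membrane. From there, sterol carriers move it at places where 2 membranes touch. STARD3 sits on the late endosome, STARD4 is a soluble carrier, and the GRAMD1 proteins (also called Asters) are held in the endoplasmic reticulum and collect cholesterol from the plasma membrane. OSBP and its relatives, the ORPs, exchange sterol or phosphatidylserine for the phosphoinositide PI4P. Loss of NPC1 or of NPC2 causes Niemann-Pick type C disease, in which cholesterol stays in late endosomes and lysosomes and myelin forms poorly. Oligodendrocytes need large amounts of cholesterol because myelin membrane is rich in it.

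The libraries held between 40000000 and 50250000 fragments, an estimate from the step that 1 fragment makes in low FPKM values. Levels are given as TPM divided by a size factor, which is called scaled TPM below. The size factors lay between 0.727 and 1.30, and Mbp alone took between 18.8% and 26.1% of the TPM in a library. Oligodendrocyte marker genes dominated every library, with a summed level of 158750 to 219510 scaled TPM in WT and of 200760 to 383580 in Npc1-/-, whereas the 4 progenitor markers summed to between 60.3 and 89.1. Markers of other cell types were present too, and none was at 0 in all libraries. The 9 microglia markers summed to between 247 and 386 in WT and between 118 and 224 in Npc1-/-. The 5 endothelial markers summed to between 517 and 681 in WT and between 322 and 395 in Npc1-/-. The 5 Purkinje cell markers summed to between 301 and 339 in WT and between 920 and 1086 in Npc1-/-. The 8 neuron markers summed to between 88.7 and 125.8 in WT and between 126.4 and 156 in Npc1-/-, and each of the 8 overlapped singly. The summed level of the 6 astrocyte markers overlapped between the genotypes. Singly, 4 of these 6 were below every WT library in Npc1-/- and 1 was above, where 27.5% of all tested genes did not overlap. Npc1-/- replicate 3 was the only library with Xist above background (15.6 TPM as deposited) and with Ddx3y at 0, and is therefore the only library from a female.

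Across all genes, 124 of the 15245 tested (0.813%) passed the test, 61 of them higher in Npc1-/- and 63 lower. To pass, a gene needed a log2 fold change of 0.1 or more in either direction and, by limma with Benjamini-Hochberg adjustment, an adjusted p under 0.05. On TPM without size factors the split was 54 higher and 870 lower, since that scale moved the median log2 fold change of all genes from 0.00806 to -0.326. Groups did not overlap for 27.5% of the tested genes, and 22.2% had an unadjusted p below 0.05. Against this background, 1 of the 10 members passed the test, Npc1 itself, and the groups did not overlap for 3 of the 10, Npc1, Npc2 and Gramd1c. Of the 9 members other than Npc1, 0 passed the limma test and 1, Npc2, had an unadjusted p below 0.05. Their median log2 fold change was 0.02, and all 9 lay between the 5th and the 95th percentile of all tested genes, which were -0.64 and 0.56.

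**Figure D1:**
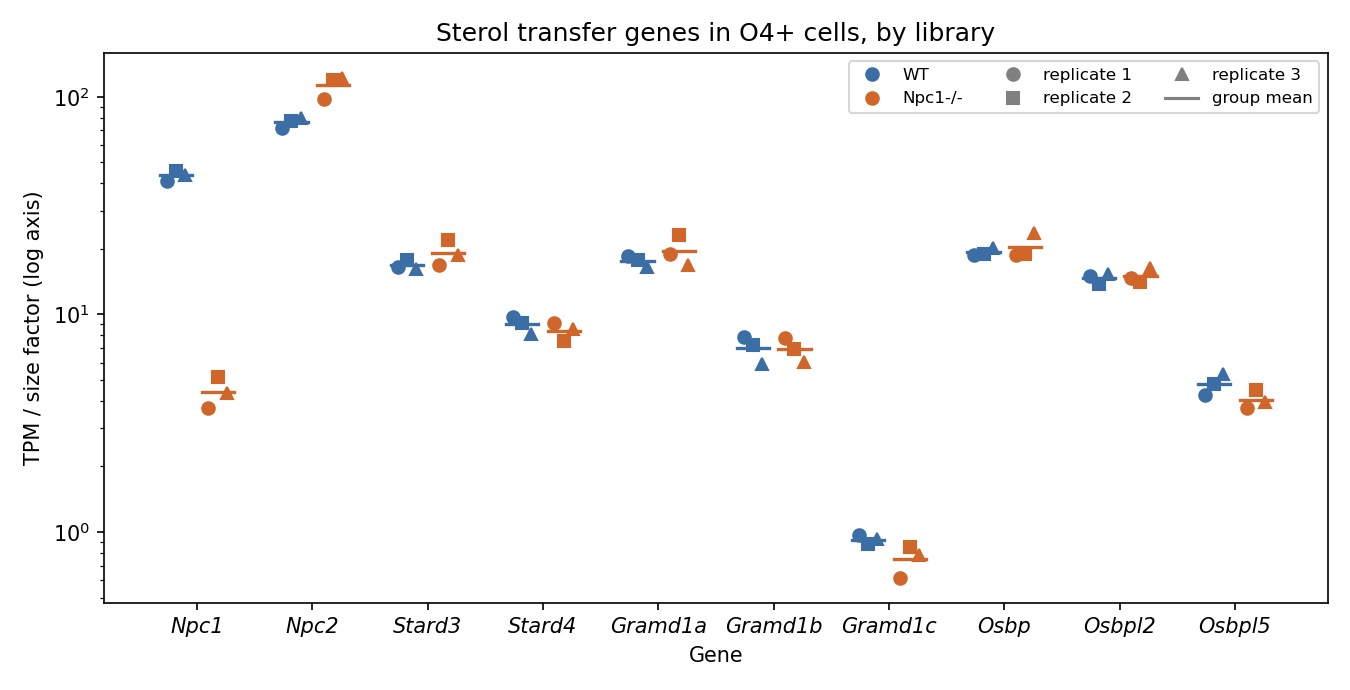
Level of each of the 10 members in each library, as TPM divided by the size factor on a log axis. Points are libraries (blue WT, orange Npc1-/-; the marker shape gives the replicate number) and lines are group means of 3. Npc1 falls from about the level next below Npc2 to a level near that of Osbpl5, while Npc2 lies between 97.4 and 122 in Npc1-/- and between 71.6 and 79.7 in WT.

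Npc1 (ENSMUSG00000024413, chr18:12189692-12236400, minus strand, GRCm38) was the gene targeted by the genotype. Its level was 41.1, 45.5 and 43.9 scaled TPM in WT replicates 1, 2 and 3, and 3.72, 5.17 and 4.35 in the Npc1-/- replicates. The 2 groups were far apart, and every library matched its labelled genotype. The mean fell from 43.5 ± 2.21 (SD, n = 3) to 4.41 ± 0.73, which is 10.1% of the WT mean. The log2 fold change was -3.17 (SE 0.12, 95% CI -3.46 to -2.88, adjusted p = 0.000398 by limma). No other tested gene had a lower fold change than Npc1. The call held under each of the 16 alternatives, with log2 fold changes between -3.52 and -3.05. If all of its fragments came from the longest transcript of 5756 bases, the gene held between 7419 and 9069 fragments in the WT libraries and between 627 and 814 in the Npc1-/- libraries. The remaining RNA was thus well above the counting limit. The tables sum over the whole gene, so they do not show where along the gene these fragments lie. Npc1 overlaps Rmc1 and Gm15956 on the other strand, and whether strand was used in counting is not stated, so a part of the remaining fragments cannot be told apart from those genes. Rmc1, chosen for this overlap after its values were seen, was at 8.17 to 9.35 scaled TPM in WT and at 7.75 to 11.0 in Npc1-/- (log2 fold change 0.15, adjusted p = 0.625 by limma).

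Npc2, which encodes the soluble partner of NPC1, was the most abundant member in every library. It lies at chr12:84754562-84773152 (ENSMUSG00000021242, minus strand, GRCm38), and 98 bases separate its annotated start from that of Isca2, an iron-sulphur cluster assembly gene read in the other direction. These bases are shown because Npc2 had the largest difference among the members after Npc1, and those before Osbp because Osbp was the most abundant of the members without such a difference. Both are from the RefSeq promoter table of GRCm38.p6 and are written 5′ to 3′ on the strand of the gene named. Capitals mark every CCAAT and every GGGCGG on either strand (ATTGG and CCGCCC are the same letters on the other strand).

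Npc2, chr12:84773153-84773250, minus strand: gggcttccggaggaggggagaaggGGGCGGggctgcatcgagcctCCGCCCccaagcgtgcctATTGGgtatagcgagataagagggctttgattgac

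Osbp, chr19:11965594-11965843, plus strand: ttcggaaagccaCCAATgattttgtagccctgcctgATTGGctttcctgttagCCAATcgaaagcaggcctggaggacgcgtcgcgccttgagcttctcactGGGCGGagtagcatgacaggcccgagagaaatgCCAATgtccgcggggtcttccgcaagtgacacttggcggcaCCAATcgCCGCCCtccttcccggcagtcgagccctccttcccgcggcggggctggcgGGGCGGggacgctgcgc

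The Npc2 stretch held 1 CCAAT and 2 GGGCGG, and the Osbp stretch held 5 CCAAT and 3 GGGCGG. Over 32851 RefSeq promoters, 33.9% had a CCAAT and 32.7% a GGGCGG within the 250 bases before the start. The palindrome CACGTG, the core of the element that the lysosomal regulator TFEB binds, was in 6.02% of those windows. It was in neither printed stretch, and neither in the 250 bases before the RefSeq starts of Npc2, Stard3, Osbp and Osbpl2. Osbpl5 had 1 CACGTG in the 250 bases before the RefSeq start that is nearest to its annotated start. Gramd1c had 1 CACGTG in each of 2 of its 3 windows, which lie inside the annotated gene, and the Gramd1a window had 0. Promoter entries were found for 7 of the 10 members (not for Npc1, Stard4 and Gramd1b). A match of letters is a description of the sequence and not of a bound site.

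The level of Npc2 was 71.6, 77.2 and 79.7 scaled TPM in the WT replicates and 97.4, 119 and 122 in the Npc1-/- replicates. Every Npc1-/- library was above every WT library. The mean was 76.2 ± 4.19 (SD, n = 3) in WT and 113 ± 13.4 in Npc1-/-, which is 148% of the WT mean. The log2 fold change of 0.56 (SE 0.11, 95% CI 0.30 to 0.82) did not pass the test over all genes, with an adjusted p of 0.0583 by limma. It passed when genes with a mean TPM under 5 were left out (adjusted p = 0.0450 by limma), and over all 16 alternatives the adjusted p ran from 0.0175 to 0.416. On TPM as deposited the difference of Npc2 was 0.19, or 0.51 above the median of all genes on that scale. Isca2, the neighbour across the 98 bases, was chosen after its values were seen. It was at 31.8, 35.7 and 37.9 scaled TPM in WT and at 37.5, 43.7 and 40.8 in Npc1-/-, with overlapping groups and a log2 fold change of 0.21 (SE 0.10, adjusted p = 0.289 by limma).

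The microglia markers had a mean sum in Npc1-/- of 0.549 of that in WT. The sum of the Purkinje cell markers was 3.05 times the WT mean, and that of the oligodendrocyte markers 1.50 times with overlapping groups. Mbp made up most of the oligodendrocyte sum. The 10 oligodendrocyte markers had a median log2 fold change of 0.19, with 8 above 0 and 2 below. In scaled TPM, both Npc2 and the oligodendrocyte sum were lowest in replicate 1 and highest in replicate 3 of each genotype. Both were divided by the same size factors, which fell in that order (1.30 to 1.04 in WT, 1.10 to 0.727 in Npc1-/-). On TPM as deposited Npc2 ran the other way, from 92.7 to 82.8 in WT and from 107 to 88.6 in Npc1-/-. The part of these cell types in the level of Npc2 was not tested, and in RNA from many cells a change in the number of cells of a type and a change in RNA per cell cannot be told apart. The TPM of Npc2 was 1.74, 1.70 and 1.82 times that of Npc1 in WT and 26.2, 23.0 and 28.0 times in Npc1-/-. In the summed TPM of the 2 genes, Npc2 thus took 63.6% ± 0.81 (SD, n = 3) in WT and 96.2% ± 0.37 in Npc1-/-. The exact two-sided permutation p was 0.1, the smallest that 3 against 3 libraries allow, and 0.267 after adjustment over the 8 family shares compared. Npc1 is the gene targeted by the genotype, so its fall alone raises this ratio and this share. Neither of them measures a change of Npc2 itself.

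**Figure D2:**
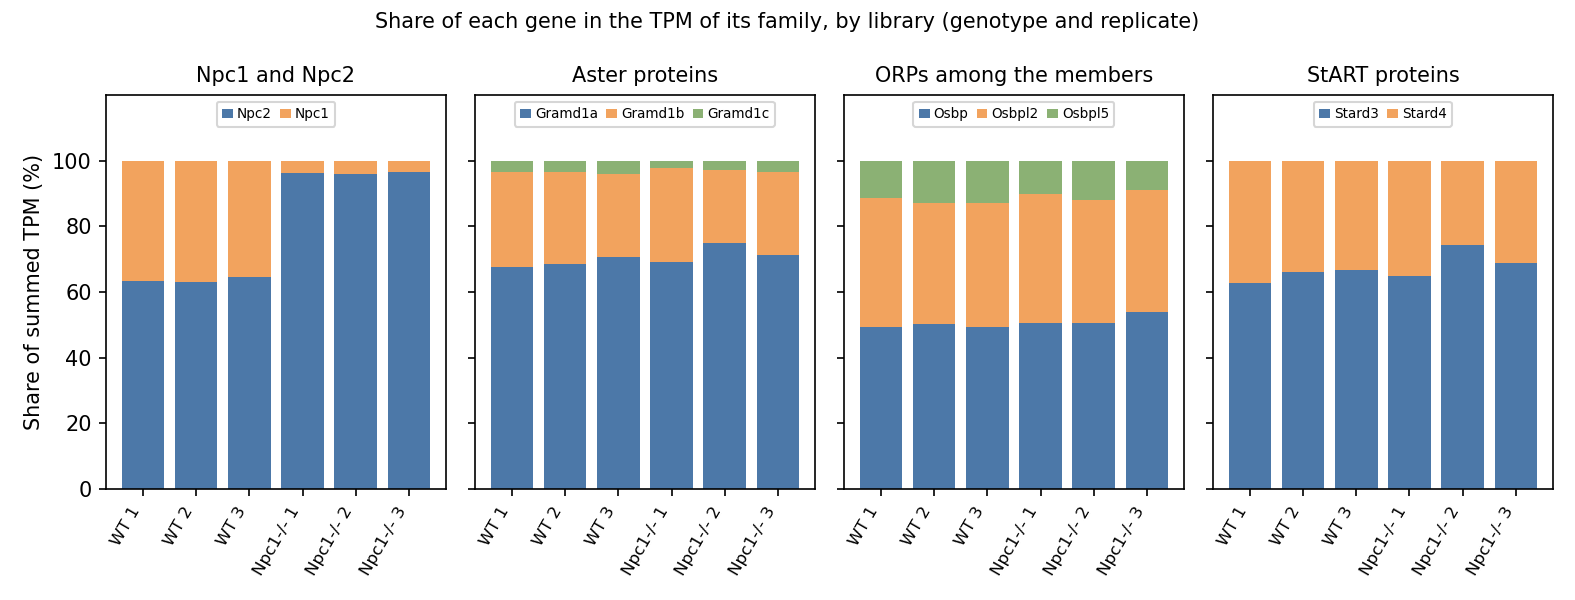
Share of each gene in the summed TPM of its family, in percent, for each library (x axis, genotype and replicate). Npc2 takes 63.6% of the pair with Npc1 in WT and 96.2% in Npc1-/-, and the other 3 families differ by no more than 4.16 points in any gene's mean share. The fall of Npc1, the gene targeted by the genotype, by itself raises the share of Npc2.

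The 2 StART proteins, which hold sterol in a shared fold, differed little. Stard3 (chr11:98358368-98381112, plus strand) encodes the late endosomal carrier that binds the VAP proteins of the endoplasmic reticulum. Its level was 16.4, 17.8 and 16.2 scaled TPM in WT and 16.9, 21.9 and 18.8 in Npc1-/-. The groups overlapped, and the log2 fold change was 0.18 (SE 0.11, 95% CI -0.09 to 0.45, adjusted p = 0.408 by limma). Stard4 (chr18:33199355-33213862, minus strand) encodes the soluble carrier and is a target of SREBP2, the transcription factor that answers to low sterol in the endoplasmic reticulum. Its level was 9.70, 9.16 and 8.14 in WT and 9.17, 7.53 and 8.57 in Npc1-/-. Its log2 fold change was -0.09 (SE 0.12, 95% CI -0.36 to 0.18, adjusted p = 0.701 by limma). Of 12 other SREBP2 targets, listed with earlier results of these data known, all 12 had a log2 fold change above 0 (median 0.33). For 9 of them every Npc1-/- library was above every WT library. Among all 15245 tested genes this held for 2033, and 27.5% did not overlap in either direction. By limma 0 of these 12 passed the test, which 0.813% of all genes did, and 9 had an unadjusted p below 0.05, which 22.2% of all genes had. On TPM as deposited, a scale with a median log2 fold change of -0.326 over all genes, the groups of each of these 12 overlapped. Stard4 is the member on the same chromosome as Npc1, 21.0 Mb away. Stard3 took 65.2% ± 2.00 (SD, n = 3) of the TPM of the 2 carriers in WT and 69.3% ± 4.81 in Npc1-/-, with overlapping groups.

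The Aster genes kept their order in both genotypes, with Gramd1a highest and Gramd1c lowest. Gramd1a (chr7:31130127-31155896, minus strand) was at 18.5, 17.7 and 16.6 scaled TPM in WT and at 18.9, 23.2 and 16.8 in Npc1-/-. Only Npc1-/- replicate 2 stood well above the others, and the log2 fold change was 0.15 (SE 0.13, 95% CI -0.16 to 0.45, adjusted p = 0.569 by limma). Gramd1b (chr9:40293233-40531383, minus strand) was at 7.87, 7.27 and 5.93 in WT and at 7.82, 6.96 and 6.01 in Npc1-/-. The difference of -0.02 (SE 0.14, 95% CI -0.35 to 0.32, adjusted p = 0.961 by limma) was the smallest of the 10 members. Gramd1c (chr16:43980350-44063345, minus strand) was at 0.97, 0.88 and 0.92 in WT and at 0.62, 0.85 and 0.78 in Npc1-/-. Its groups did not overlap, yet the log2 fold change of -0.19 (SE 0.17, 95% CI -0.58 to 0.20) was close to its error, with an adjusted p of 0.565 by limma. Between 66 and 126 fragments per library stood behind it if they came from its longest transcript, the fewest of the members. Its log2 fold change was -0.27 with a pseudocount of 0.1 and -0.14 with a pseudocount of 1. Among all tested genes 9.48% had a WT level no higher than that of Gramd1c, and 71.1% one no higher than that of Gramd1a. The mean share of Gramd1a in the TPM of the family was 69.0% in WT and 71.7% in Npc1-/-. That of Gramd1b was 27.4% and 25.5%. That of Gramd1c was 3.62% ± 0.29 (SD, n = 3) in WT and 2.78% ± 0.53 in Npc1-/-, without overlap (exact two-sided permutation p = 0.1, 0.267 after adjustment over 8 shares).

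The 3 ORP members also overlapped between the genotypes. Osbp (chr19:11965941-11994112, plus strand) encodes the exchanger of sterol for PI4P between the endoplasmic reticulum and the Golgi. It was at 18.7, 18.9 and 20.2 scaled TPM in WT and at 18.8, 19.0 and 23.7 in Npc1-/-. Its log2 fold change was 0.08 (SE 0.11, 95% CI -0.18 to 0.34, adjusted p = 0.734 by limma), and without Npc1-/- replicate 3 it was -0.03. It has a single annotated transcript, of 4488 bases, and between 2305 and 3172 fragments per library. Osbpl2 (chr2:180119306-180162680, plus strand), a soluble carrier between the plasma membrane and other membranes, was at 15.0, 13.8 and 15.4 in WT and at 14.7, 14.1 and 16.3 in Npc1-/-. With a log2 fold change of 0.02 (SE 0.10, 95% CI -0.20 to 0.25, adjusted p = 0.913 by limma) it had the narrowest interval of the members. Osbpl5 (chr7:143688762-143756985, minus strand) encodes ORP5, which is anchored in the endoplasmic reticulum. It was at 4.26, 4.79 and 5.32 in WT and at 3.72, 4.48 and 3.96 in Npc1-/-. The log2 fold change was -0.21 (SE 0.13, 95% CI -0.51 to 0.08, adjusted p = 0.380 by limma), the lowest after Npc1. The share of Osbp in the TPM of the 3 genes was 49.7% ± 0.62 (SD, n = 3) in WT and 51.7% ± 1.91 in Npc1-/-, without overlap (exact two-sided permutation p = 0.1, 0.267 after adjustment). Osbpl2 took 38.0% in both genotypes. Osbpl5 took 12.3% in WT and 10.3% in Npc1-/-, with overlapping groups.

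The intervals bound what these libraries could have missed. Apart from Npc1 and Npc2, each of the other 8 members had an interval that held 0 and that ended between -0.58 and 0.45 on the log2 scale. For the fold change of Npc1-/- over WT, the interval ran from 0.871 to 1.19 for Osbpl2 and from 0.782 to 1.25 for Gramd1b. They do not cover the choice of scale, since on TPM as deposited the log2 fold changes were -0.34 for Osbpl2 and -0.36 for Gramd1b. The median absolute log2 fold change over all tested genes was 0.18, and 3 of the 9 members other than Npc1 were above it, Npc2, Osbpl5 and Gramd1c. On TPM as deposited, Stard3, Gramd1a, Osbp and Osbpl2 had negative values, since that scale lowered the median of all genes to -0.326. Relative to that median, Stard3 was at 0.14, Gramd1a at 0.11, Osbp at 0.041 and Osbpl2 at -0.011. Under quantile normalization Gramd1b was at 0.031.

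Ordered by WT level, the members ran Npc2, Npc1, Osbp, Gramd1a, Stard3, Osbpl2, Stard4, Gramd1b, Osbpl5 and Gramd1c, from 76.2 to 0.92 scaled TPM on a scale that takes account of transcript length. Neighbours in this order did not overlap in WT, except Gramd1a and Stard3 (17.6 and 16.8). In Npc1-/-, Osbp and Gramd1a overlapped too, as did Gramd1a and Stard3, and Stard4 and Gramd1b. Npc1 by its mean moved from the place after Npc2 to a place between Gramd1b (6.93) and Osbpl5 (4.06), with a range that overlapped that of Osbpl5, and the order of the other 9 by their means was the same in both genotypes. The coefficient of variation between WT libraries was between 4.27% (Osbp) and 14.2% (Gramd1b). Between Npc1-/- libraries it was between 7.62% (Osbpl2) and 16.6% (Gramd1a).

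A wider set of 50 sterol transfer genes was fixed in 4 lists: other ORPs, other START, GRAM and NPC1-like genes, tethers of membrane contact sites with the enzymes of PI4P, and partners of NPC1 on the late endosome. Of these, 47 were tested, and Esyt3, Npc1l1 and Sidt1 were below the limit on mean TPM. Of the 47, 1 passed the test as higher in Npc1-/-, and 0 as lower by limma, compared with 0.813% of all genes in either direction. At an unadjusted p below 0.05, 6 were higher and 6 lower, compared with 22.2% of all genes. Groups did not overlap for 6 genes above and 9 below, and overlapped for 32, where 27.5% of all genes did not overlap. These counts lie near the shares over all genes. The median log2 fold change was -0.04, compared with 0.00806 over all genes.

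**Figure D3:**
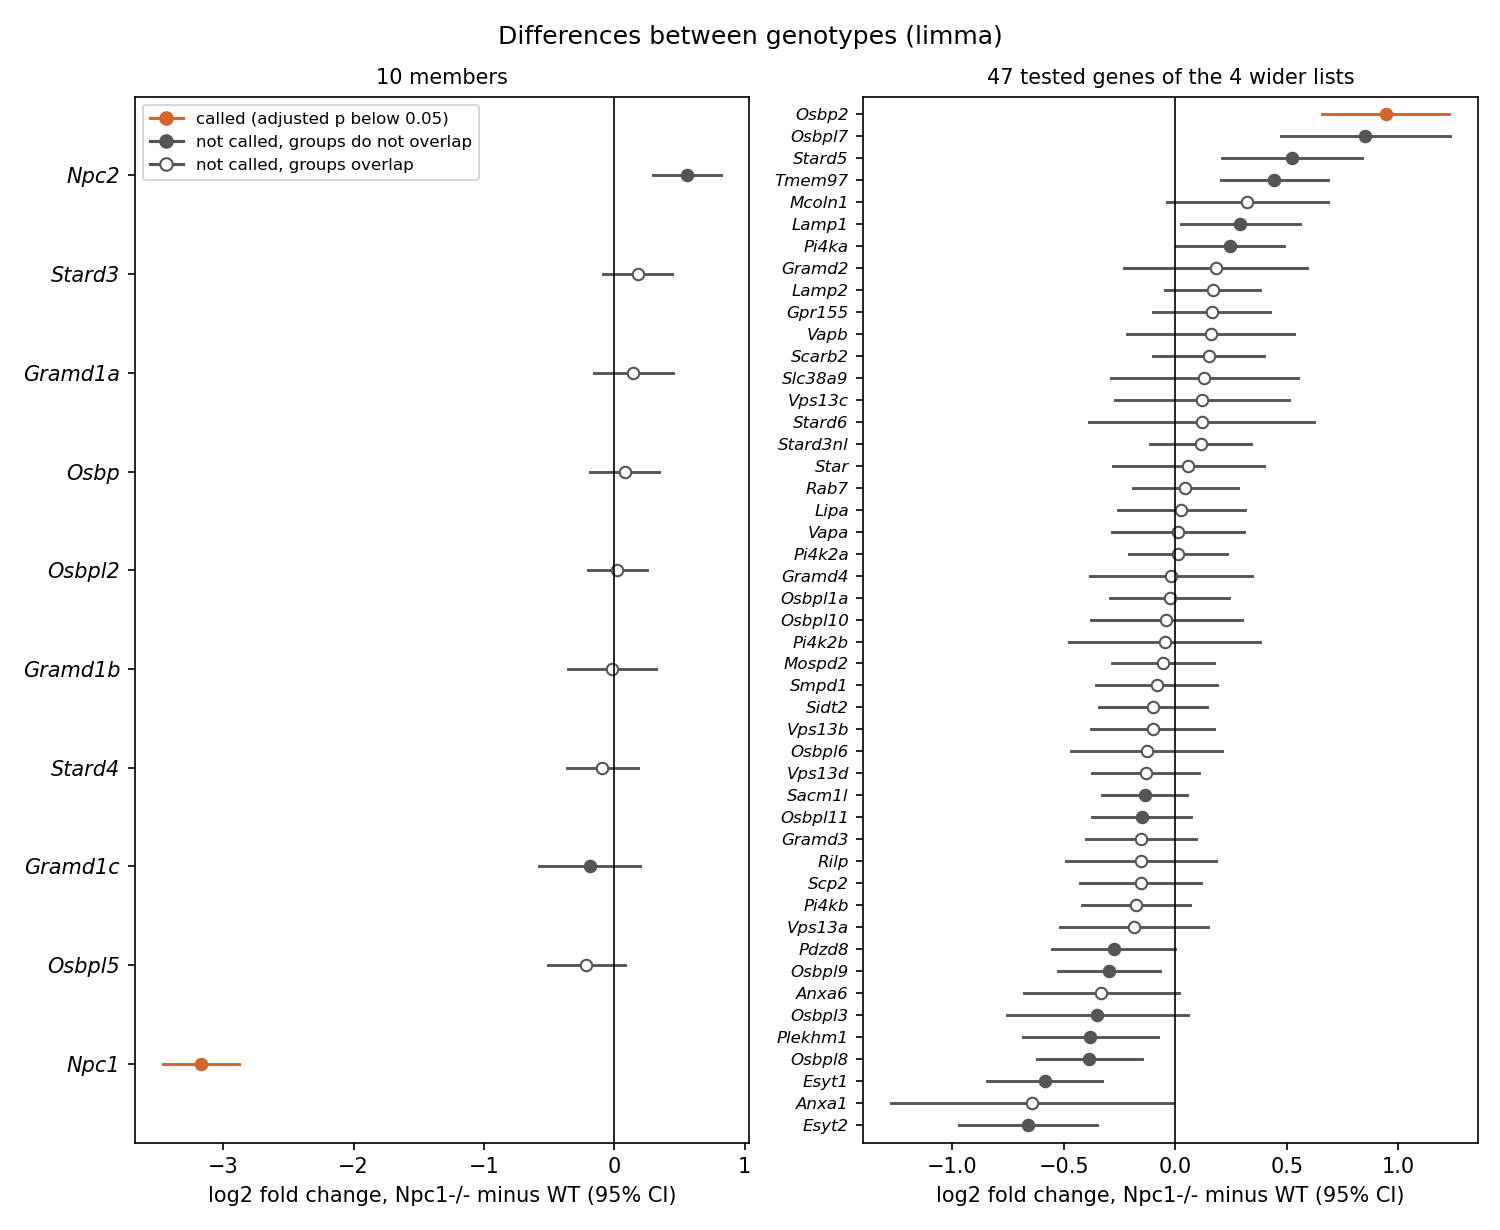
Log2 fold change of Npc1-/- over WT with its 95% confidence interval from limma, for the 10 members (left) and the 47 tested genes of the 4 wider lists (right, on another x scale). Orange marks genes that passed the test, and open circles mark overlapping groups. Npc1 at -3.17 and Osbp2 at 0.94 are the genes that passed.

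The gene that passed was Osbp2, which encodes ORP4, the closest relative of OSBP. It lies at chr11:3703731-3863903 (minus strand). Its level was 2.96, 2.98 and 2.94 scaled TPM in WT and 5.56, 5.92 and 7.06 in Npc1-/-. The WT libraries were almost alike, and all Npc1-/- libraries were above them. The mean was 2.96 ± 0.02 (SD, n = 3) in WT and 6.18 ± 0.78 in Npc1-/-, 2.09 times as high. The log2 fold change was 0.94 (SE 0.12, 95% CI 0.66 to 1.23, adjusted p = 0.0364 by limma). The adjusted p was between 0.0544 and 0.172 without any 1 of the 3 WT libraries or of Npc1-/- replicates 1 and 2, and 0.0307 without Npc1-/- replicate 3. The call was also lost on TPM as deposited, where the log2 fold change was 0.61 with an adjusted p of 0.123 by limma, and in the fit without a filter on low genes (adjusted p = 0.0983). The sum of the Purkinje cell markers was higher in the same 3 libraries. That of the neuron markers was so only narrowly, with a lowest Npc1-/- sum of 126.4 and a highest WT sum of 125.8. The part of these cell types in the level of Osbp2 was not tested. In the list of 9 other ORPs, 2 genes were above 0 and 7 below, and 8 did not pass the test.

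Osbpl1a encodes ORP1, whose long form is a cholesterol sensor on late endosomes. It was the most abundant ORP measured here and lies 0.519 Mb from Npc1 on chromosome 18. It was at 111, 140 and 129 scaled TPM in WT and at 118, 119 and 134 in Npc1-/- (log2 fold change -0.03, SE 0.11, adjusted p = 0.924 by limma). Which strain's DNA each mouse carried around Npc1 was not analysed here. Vapa and Vapb encode the proteins of the endoplasmic reticulum to which STARD3, OSBP and some other ORPs bind. Vapa was at 31.8 to 42.8 in WT, with a log2 fold change of 0.01 (SE 0.13, adjusted p = 0.963 by limma), and Vapb was at 71.6 to 93.8, with a log2 fold change of 0.16 (SE 0.16, adjusted p = 0.621 by limma). Lipa encodes the acid lipase that frees cholesterol from its esters in the lysosome, and it was at 13.4 to 17.0 in WT with a log2 fold change of 0.03 (SE 0.12, adjusted p = 0.924 by limma). Tmem97, which encodes a membrane protein that binds NPC1 and is itself a sterol-regulated gene, was at 10.3, 9.91 and 9.60 in WT and at 14.7, 14.2 and 12.2 in Npc1-/-. All Npc1-/- libraries were above WT, and the log2 fold change of 0.44 (SE 0.10, 95% CI 0.20 to 0.68) had an adjusted p of 0.0699 by limma. On TPM as deposited the groups of Tmem97 overlapped and its log2 fold change was 0.086 (adjusted p = 0.810 by limma). That was 0.41 above the median of all genes on that scale.

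A further 3 genes stood near the threshold without passing it and were chosen after their values were seen. Osbpl7, another ORP, was at 4.56, 5.51 and 5.73 scaled TPM in WT and at 9.09, 12.3 and 8.56 in Npc1-/- (log2 fold change 0.85, SE 0.16, adjusted p = 0.0557 by limma). Esyt1 and Esyt2 encode extended synaptotagmins, which tether the endoplasmic reticulum to the plasma membrane. Their log2 fold changes were -0.59 (SE 0.11, adjusted p = 0.0557 by limma) and -0.66 (SE 0.13, adjusted p = 0.0580 by limma), with every Npc1-/- library below every WT library. The endothelial and microglia sums were lower in the same libraries, and their part in the levels of these tethers was not tested.

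**Figure D4:**
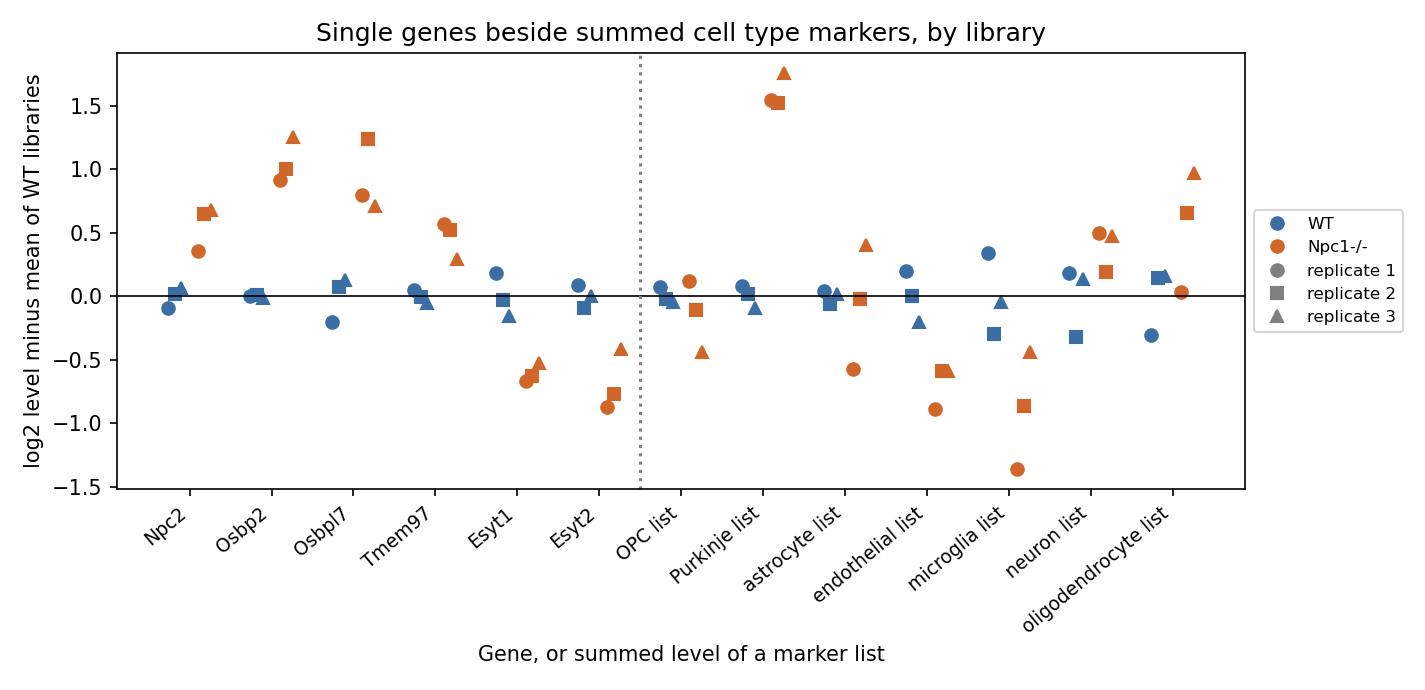
Log2 level of 6 genes and of 7 summed marker lists in each library, less the mean of the WT libraries (points, blue WT and orange Npc1-/-; shapes give the replicate number). Npc2, Osbp2, Osbpl7 and Tmem97 lie above WT in all 3 Npc1-/- libraries in scaled TPM, as the Purkinje list does. The neuron list does so only narrowly (126.4 against 125.8 scaled TPM), and none of its 8 genes does so singly. Esyt1 and Esyt2 lie below, as the endothelial and microglia lists do.

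The genes whose centred log2 levels were nearest to those of Npc1 over the 6 libraries, by the root mean square difference, were Cd163 (0.48), Gm5876 (0.60) and Mrc1 (0.73). Their log2 fold changes were -2.29, -2.22 and -1.90. This difference includes the size of a change, so a gene near Npc1 by this measure must itself fall strongly. Cd163 and Mrc1 are scavenger and mannose receptors of macrophages. Cd163 was at 2.18 to 3.06 scaled TPM in WT and at 0.07 to 0.23 in Npc1-/-, and Mrc1 at 3.73 to 7.39 and at 0.88 to 1.10. Gm5876, a processed pseudogene, was listed at 0 in the Npc1-/- libraries. The genes nearest to Npc2 were Tmem63a (0.03), Fdx2 (0.04) and Rps2 (0.05). Rps2, a gene of the small ribosomal subunit, was at 416 to 481 in WT and at 606 to 711 in Npc1-/-, and Tmem63a, which encodes a mechanosensitive channel, was at 40.3 to 44.6 and at 54.5 to 69.8.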

How the data were processed

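RNA was sequenced from O4-microbead-purified cells of 3 WT and 3 Npc1-/- mice at postnatal day 16. The authors deposited TPM (transcript abundance scaled to an equal total) and FPKM (fragment density over the transcript, scaled by library size), with 2 decimals, for 55492 genes in each of the 6 samples. The paper's methods name bbduk, STAR and featureCounts on GRCm38, and the submitters' processing notes name cutadapt 2.3, STAR 2.7.8a and RSEM 1.3.3. Which of them made the tables, and whether strand was used, is not given in the sources used here. Groups and replicate numbers were taken from the sample titles.

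Each sample's deposited TPM was scaled by its median-of-ratios size factor, from 18690 genes above 0 in all samples, and log2 was taken after adding a pseudocount of 0.5. The test ran in limma 3.58.1 (R 4.3.3, trend, genotype as the only factor) on genes whose TPM averaged 0.5 or more, and p-values were adjusted over all of them by the Benjamini-Hochberg method. Fold changes are on this log2(value + pseudocount) scale, which understates those of low genes. The deposited FPKM values served as an alternative and gave the depth: 80.0% to 83.8% of the low values of genes with a single transcript came within 0.15 of whole fragments. Since whole fragments were not recovered for all genes, no count model was run. Shares within a family were compared with an exact permutation test. The fit and the depth search were tested on simulated data. Gene positions came from GENCODE M21, which held 55227 of the identifiers. Python 3.11.15 with pandas 2.3.3 and scipy 1.17.1 was used for the rest.

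The members, the 4 wider lists, the SREBP2 targets and the marker lists were chosen with earlier results of these data known. Named were all 10 members, every gene of the wider lists that passed the test, Osbpl1a, Vapa, Vapb, Tmem97 and Lipa whatever their values, and the 3 genes nearest in pattern to Npc1 and to Npc2. The alternatives were TPM without size factors, quantile normalization, FPKM, no filter or one at a mean TPM of 5, pseudocounts of 0.1 and 1, robust estimation or no trend in limma, a block for the replicate number, and each library left out in turn. For genes of the wider lists these alternatives were added after seeing the data.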

Additional observations from a re-analysis of the deposited data

How the results depend on the processing

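Of 301 fold changes and share differences recomputed under an alternative, 257 kept their direction and side of the threshold, 14 gained a call, 7 (all for Osbp2) lost it, and 23 changed sign. The count of genes called, 124, was 924 on TPM as deposited, 225 with quantile normalization, 21 without a filter, 447 with a mean TPM of at least 5, 42 without trend, and between 4 and 486 when each library was left out (4 without Npc1-/- replicate 2, 486 without Npc1-/- replicate 3). The number of members called stayed at 1, except for 2 (Npc1 and Npc2) with a mean TPM of at least 5 and 2 with the replicate block below. The number of other sterol transfer genes called, 1, was 3 on TPM as deposited (Anxa1, Esyt1 and Esyt2, not Osbp2), 2 with quantile normalization, 0 without a filter, 3 with a mean TPM of at least 5 (where Osbp2 was left out by the filter), and between 0 and 5 when each library was left out. The cause of these changes was not tested.

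The replicate numbers 1 to 3 occur in both genotypes, but the mice differ. Deviations of same-numbered libraries from their group means had correlations of 0.41, 0.06 and 0.33. Those of libraries with different numbers were lower, between -0.39 and 0.05. Deviations from a group mean cancel out within the group, so high values for same-numbered libraries by themselves lower the others. The 0.06 of replicate 2 was close to the 0.05 of WT replicate 3 with Npc1-/- replicate 2. The sample titles name no pairing, so the main fit did not use the numbers, and whether same-numbered libraries shared a batch is not known. In a fit with the replicate block, 2011 genes, 2 members (Npc1 and Npc2, adjusted p = 0.0175 by limma) and 7 other sterol transfer genes passed.

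On TPM as deposited the log2 fold changes of Stard3 (-0.18), Gramd1a (-0.22), Osbp (-0.29), Osbpl2 (-0.34), Vapa (-0.35), Vapb (-0.21) and Lipa (-0.33) changed sign, on a scale whose median over all genes was -0.326. Relative to that median, Stard3 (0.14), Gramd1a (0.11), Osbp (0.041) and Vapb (0.11) kept their sign, and Osbpl2 (-0.011), Vapa (-0.028) and Lipa (-0.0072) were near 0. With quantile normalization those of Gramd1b (0.031) and Vapa (-0.025) did. With each library left out in turn, Gramd1b ran from -0.13 to 0.071, Osbp from -0.030 to 0.14, Osbpl2 from -0.037 to 0.070, Osbpl1a from -0.12 to 0.046, Vapa from -0.086 to 0.12, Lipa from -0.033 to 0.13, and the difference in the share of Osbpl2 from -0.724 to 0.761 points.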

Other observations

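Among the late endosomal partners on the wider lists was Lamp1, a main glycoprotein of the lysosomal membrane. In scaled TPM Lamp1 was above WT in every Npc1-/- library, without passing the test. It was chosen after its values were seen. Its level was 463, 503 and 511 scaled TPM in WT. The log2 fold change was 0.29 (SE 0.11, adjusted p = 0.189 by limma). Before division by the size factors, Lamp1 was at 600, 557 and 531 TPM in WT. In Npc1-/- it was then at 602, 529 and 469, so the groups overlapped. Among all tested genes, 27.5% did not overlap in scaled TPM. Plekhm1, which links late endosomes to the machinery that fuses and moves them, was chosen in the same way and was below WT in every Npc1-/- library, with a log2 fold change of -0.38 (SE 0.13, adjusted p = 0.143 by limma). Stard5, a soluble carrier related to Stard4, was at 2.76, 2.09 and 2.42 in WT and had a log2 fold change of 0.52 (SE 0.13, adjusted p = 0.0829 by limma). Osbpl8, an ORP of contact sites with the plasma membrane and a relative of Osbpl5, had a log2 fold change of -0.39 (SE 0.10, adjusted p = 0.0852 by limma). Stard5 and Osbpl8 were chosen after their values were seen, and neither passed the test. The 7 ORPs on the wider lists with a log2 fold change below 0 and the 2 above it, Osbp2 and Osbpl7, gave a median of -0.13 for the 9.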
